A study of Mus musculus with 419 samples.

Results

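The cells compared here are single mouse embryonic stem cells with high or low levels of transcripts that mark passage from G1 into S phase, all from 1 population labelled as G1 phase. A G1/S score was computed for each of the 419 cells. Ccne1, Ccne2, Cdc6, Mcm5, Mcm6, Slbp and Ung were each expressed in parts per 1000000 of the cell's total (ppm), divided by the gene's mean over all cells, and averaged. The 105 cells with the highest scores are called G1/S-high and the 105 with the lowest scores G1/S-low, 210 of 419 cells in all. The cells were thus chosen by the measured levels of these 7 genes, whose difference between the sets is a description and not a finding.

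The study measured transcripts of 2 alleles cell by cell, to study transcriptional bursting. G1/S-high and G1/S-low cells alike belong to the female hybrid mouse line F1-21.6 (129Sv-Cast/EiJ), whose genome holds 1 set of chromosomes from strain 129 and 1 from Castaneus, cultured feeder-free on a Laminin-511 substrate with serum and leukemia inhibitory factor (LIF). RamDA-seq, which covers whole transcripts and also captures RNA without a poly(A) tail, was used for every cell. The line is a single one and was not treated. No separate cultures are named, so the 419 cells count as 1 sample and no p-value was computed. The spread given is between the 5 sequencing lanes (2 to 6) that the labels name, and it may be technical.

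Entry into S phase is driven by cyclin E with its kinase CDK2 and by E2F transcription factors, which are held back by RB proteins until G1 cyclins and CDKs release them. E2F targets include cyclin E itself, the licensing factor Cdc6, subunits of the MCM helicase that is loaded at replication origins, and enzymes that make deoxynucleotides. Replication-dependent histone mRNAs end in a stem-loop in place of a poly(A) tail. SLBP binds that stem-loop, and these mRNAs accumulate during S phase. Mouse embryonic stem cells are known for a short G1 phase and for cyclin E levels that vary little over the cycle.

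Scores of G1/S-high cells ran from 1.163 to 1.61 (median 1.25) and those of G1/S-low cells from 0.0544 to 0.869 (median 0.73). The distribution had a single main body with a tail of low scores. The nearest cells left out had 1.162 just under the G1/S-high cells and 0.871 just over the G1/S-low cells, so both limits cut through a continuous range. Each lane gave 19 to 24 G1/S-high and 12 to 25 G1/S-low cells.

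**Figure D1:**
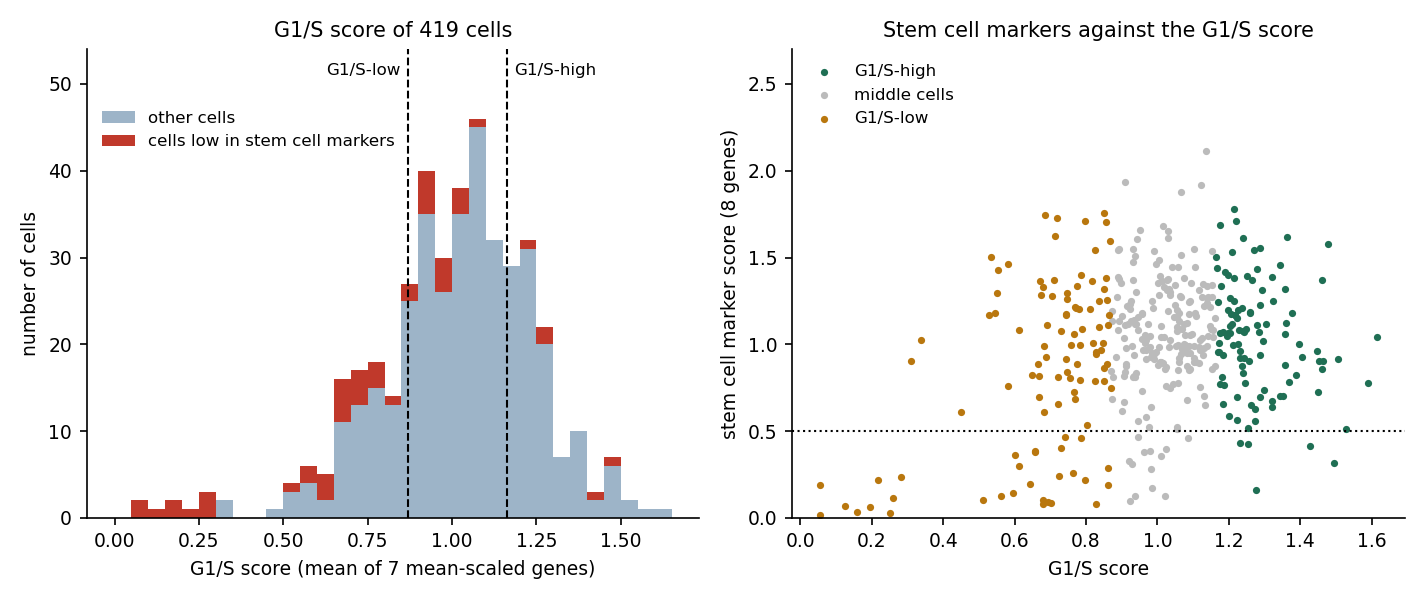
Left, number of cells per bin of G1/S score for all 419 cells, with cells whose stem cell marker score is under 0.5 stacked on top; dashed lines mark the lowest score of G1/S-high cells (1.16) and the highest of G1/S-low cells (0.869). Right, stem cell marker score against G1/S score, 1 point per cell, with a dotted line at 0.5; 5 G1/S-high and 30 G1/S-low cells lie under it.

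Among the 7 score genes, cyclin E2 differed most. Ccne2 (cyclin E2, chromosome 4, 11191351 to 11204779, plus strand, mm10) had 8.08, 42.8 and 105.8 ppm in the lowest, median and highest G1/S-high cell, against 0, 11.4 and 47.9 ppm in the G1/S-low cells. Ccne1 (cyclin E1, chromosome 7, 38097984 to 38107534, minus strand) had 154.04, 334.1 and 734 ppm in the lowest, median and highest G1/S-high cell, against 12.2, 175.6 and 532 ppm in the G1/S-low cells. The 2 sets of cells overlapped for both genes, although 99% of G1/S-high cells were above the G1/S-low median for Ccne2 and 97.1% for Ccne1. Cdc6, which loads the MCM helicase (chromosome 11, 98907801 to 98923940, plus strand), averaged 119.02 ± 2.24 ppm in G1/S-high and 58.7 ± 6.81 ppm in G1/S-low cells (SD over 5 lanes). Mcm5 (chromosome 8, 75109569 to 75128439, plus strand) averaged 622 ± 34.2 ppm in G1/S-high and 433 ± 26.2 ppm in G1/S-low cells, and Mcm6 (chromosome 1, 128331590 to 128359664, minus strand) averaged 463 ± 21.2 ppm in G1/S-high and 313.9 ± 8.69 ppm in G1/S-low cells. The helicase subunits had the smallest relative differences of the 7. Slbp, the histone stem-loop binding protein (chromosome 5, 33634952 to 33652574, minus strand), averaged 193.01 ± 9.64 ppm in G1/S-high and 108.4 ± 4.72 ppm in G1/S-low cells. Ung, which removes uracil from DNA (chromosome 5, 114130386 to 114139323, plus strand), averaged 128.7 ± 10.2 ppm in G1/S-high and 72.2 ± 6.67 ppm in G1/S-low cells.

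The log2 ratio of the 2 means, with 1 ppm added to each, was 1.70 for Ccne2, 1.01 for Cdc6, 0.92 for Ccne1, 0.83 for Slbp, 0.83 for Ung, 0.56 for Mcm6 and 0.52 for Mcm5. To look at each gene without its own value, the high and low cells were retaken on the other 6 genes. The log2 ratio was then 0.91 for Ccne2, 0.72 for Cdc6, 0.65 for Ung, 0.65 for Slbp, 0.50 for Ccne1, 0.46 for Mcm6 and 0.41 for Mcm5. All 7 held-out ratios were above 0 in each of the 5 lanes, and each was smaller than the ratio with the gene in the score. Without the cells low in stem cell markers described below, held-out Ccne1 was at 0.23 and above 0 in 4 lanes, while the other 6 stayed above 0 in 5 lanes. Scoring on the 129 table and reading the CAST table gave log2 ratios of 0.43 to 0.70, and scoring on CAST and reading 129 gave 0.45 to 0.70. How reads without a strain variant were divided between the tables was not stated, so the 2 readings may not be independent.

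Across the 419 cells, which share library and scaling steps, the 21 pairs of score genes had Spearman rho of 0.052 to 0.54 with a median of 0.25. Mcm5 with Mcm6 gave the highest value and Ccne2 with Mcm5 the lowest. Ccne2 was closer to Cdc6 (0.39) and Slbp (0.36) than to Mcm5 or Mcm6 (0.19), and Ung was closest to Mcm6 (0.48) and Mcm5 (0.42). These values describe which genes varied together in these cells.

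Promoters of the score genes were searched because E2F sites define the textbook class to which these genes belong. RefSeq windows on GRCm38.p6, from 250 bases before to 50 bases after a start, were available for 6 of the 7 genes, and the windows are from the reference strain, not from 129 or CAST. Both strands were searched for TTTCCCGC, TTTCGCGC, TTTGCCGC and TTTGGCGC. At least 1 of them was found in Mcm5, Mcm6 and Cdc6, and none in Ccne1, Slbp and Ung, while Ccne2 had no window. The 3 with a match are shown here with matches in capitals. They lie at chr8:75109259-75109558 on the plus strand, chr1:128359656-128359955 on the minus strand and chr11:98907901-98908200 on the plus strand. The RefSeq start lies 60 bases from the 5' end of the gene's row with the highest value for Mcm5, 41 for Mcm6 and 0 for Cdc6. In Mcm5, 2 matches on opposite strands overlap, the first starting 153 bases before the RefSeq start.
Mcm5: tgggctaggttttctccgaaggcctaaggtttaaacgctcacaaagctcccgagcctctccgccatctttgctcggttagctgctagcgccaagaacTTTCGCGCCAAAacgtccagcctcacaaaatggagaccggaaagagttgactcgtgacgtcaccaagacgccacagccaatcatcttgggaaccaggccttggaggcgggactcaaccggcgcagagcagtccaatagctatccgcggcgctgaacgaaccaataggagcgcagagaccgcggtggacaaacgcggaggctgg
Mcm6: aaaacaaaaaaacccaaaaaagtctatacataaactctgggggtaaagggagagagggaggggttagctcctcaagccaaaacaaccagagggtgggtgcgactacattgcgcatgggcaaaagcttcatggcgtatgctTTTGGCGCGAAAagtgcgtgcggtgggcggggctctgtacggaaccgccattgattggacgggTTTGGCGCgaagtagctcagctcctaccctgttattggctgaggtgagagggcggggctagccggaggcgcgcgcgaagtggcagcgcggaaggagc
Cdc6: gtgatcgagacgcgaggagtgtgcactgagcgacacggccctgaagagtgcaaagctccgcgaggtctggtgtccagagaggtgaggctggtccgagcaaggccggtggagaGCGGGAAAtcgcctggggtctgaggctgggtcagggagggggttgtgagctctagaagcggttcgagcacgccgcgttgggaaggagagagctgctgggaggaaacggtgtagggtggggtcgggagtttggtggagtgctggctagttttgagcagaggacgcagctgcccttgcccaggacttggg
The Mcm6 window holds an overlapping pair that begins 110 bases before the start and a further match from 47 to 40 bases before it. The Cdc6 window holds 1 match, on the minus strand. Over all 32851 windows, 2.26% hold a match, and over the 8228 tested genes with a window, 5.31% do. A match is a description of the letters and not a site shown to be bound.

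Before other genes were compared, cells that stand apart were counted. A stem cell marker score, the mean of Pou5f1, Sox2, Nanog, Esrrb, Zfp42, Dppa5a, Sall4 and Klf4 after scaling each to its mean, was under 0.5 in 48 of 419 cells. G1/S-high cells held 5 of them and G1/S-low cells 30, with the other 13 among the 209 cells between. The limit was chosen after the data were seen and cuts a continuous range, with 0.469 and 0.511 the nearest values on either side. Of the 12 cells with a G1/S score under 0.5, 9 were low in stem cell markers. Autosomal 129 shares of the 48 cells were 47.8% to 51.6%, near an even split between the strains. In 11 cells, 2 of them among the 48, under 1% of the total came from mitochondrial genes, with 1 cell G1/S-high and 7 cells G1/S-low. The counts of called genes are therefore also given without the cells low in stem cell markers, which leaves 100 G1/S-high and 75 G1/S-low cells.

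General measures of the cells were close. The median number of transcripts above 0 was 29285 in G1/S-high and 29337 in G1/S-low cells, ribosomal RNA genes took 15.3% of the total in G1/S-high and 15.4% in G1/S-low cells, and mitochondrial genes took 4.73% in G1/S-high and 4.68% in G1/S-low cells. The sum of the nuclear RNAs Malat1 and Neat1 differed, with medians of 1514 ppm in G1/S-high and 3149.5 ppm in G1/S-low cells. Stem cell marker scores had medians of 1.06 in G1/S-high and 0.914 in G1/S-low cells. What part these differences have in the results was not tested.

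Of 10671 other genes whose mean reached 5 ppm and whose value was above 0 in 20% of cells or more, 85 (0.797%) were at least 1.5-fold higher in G1/S-high cells and higher in each of the 5 lanes. In the other direction, 724 (6.78%) were at least 1.5-fold lower and lower in each lane. These genes are called higher and lower in what follows. Without the cells low in stem cell markers, 59 genes (0.553%) were called higher and 205 (1.92%) lower. Of the 85, 45 were still called higher, and of the 724, 147 were still called lower. Leaving out the cells poor in mitochondrial RNA as well gave 64 (0.6%) and 125 (1.17%). The median log2 ratio of all genes tested was -0.03, and without the cells low in stem cell markers -0.01. Between settings the share called higher was lowest at 2-fold (0.0562%) and highest with a score from ranks (1.27%).

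Among the 36 protein-coding genes called higher that averaged 20 ppm or more and have no predicted symbol, the 3 highest ratios belonged to regulators of the cell cycle. Fbxo5 (EMI1, an inhibitor of the anaphase-promoting complex, chromosome 10, 5799160 to 5805600, minus strand) had 11.4, 81.4 and 142.4 ppm in the lowest, median and highest G1/S-high cell, against 0, 36.1 and 96.6 ppm in the G1/S-low cells. Its mean was 80.7 ± 5.57 ppm in G1/S-high and 36.9 ± 6.85 ppm in G1/S-low cells (SD over 5 lanes), a log2 ratio of 1.11 ± 0.24, and 97.1% of G1/S-high cells exceeded the G1/S-low median. The 2 ranges overlapped over most of their length. E2f8, an E2F that represses transcription (chromosome 7, 48866429 to 48881596, minus strand), had 31.1, 109.6 and 200.8 ppm (lowest, median and highest) in G1/S-high cells and 0, 48.9 and 185.6 ppm in G1/S-low cells. E2f2, an E2F that activates transcription (chromosome 4, 136172394 to 136196057, plus strand), had 0, 28.9 and 102.2 ppm (lowest, median and highest) in G1/S-high cells and 0, 8.95 and 73.9 ppm in G1/S-low cells. The log2 ratios were 1.00 ± 0.18 for E2f8 and 0.95 ± 0.13 for E2f2. Both were called higher without the cells low in stem cell markers too, at 0.78 and 0.64, and Fbxo5 was at 0.89.

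The promoter windows of E2f2 (chr4:136172024-136172323 on the plus strand) and Fbxo5 (chr10:5805416-5805715 on the minus strand) are shown beside these values. Capitals mark the same E2F letters in E2f2, found 39 to 46 bases after the RefSeq start. The Fbxo5 window holds none of these E2F letters. In it, capitals mark CCAAT and TTTGAA on either strand. These are the letters of the CCAAT box and of the CHR element, known from cell cycle promoters.
E2f2: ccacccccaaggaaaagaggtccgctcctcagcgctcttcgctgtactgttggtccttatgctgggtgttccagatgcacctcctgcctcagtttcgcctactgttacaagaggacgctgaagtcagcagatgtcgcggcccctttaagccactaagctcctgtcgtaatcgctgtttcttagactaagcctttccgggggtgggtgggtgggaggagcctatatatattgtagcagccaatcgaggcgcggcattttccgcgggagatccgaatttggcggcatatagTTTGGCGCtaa
Fbxo5: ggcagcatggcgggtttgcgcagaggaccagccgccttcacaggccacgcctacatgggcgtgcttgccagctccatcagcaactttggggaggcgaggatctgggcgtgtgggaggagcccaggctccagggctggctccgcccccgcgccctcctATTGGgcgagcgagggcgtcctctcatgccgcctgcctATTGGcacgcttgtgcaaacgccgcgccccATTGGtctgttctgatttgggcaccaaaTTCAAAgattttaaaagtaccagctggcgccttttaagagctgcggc
Fbxo5 holds CCAAT on the minus strand at 3 places, the nearest 25 to 21 bases before the RefSeq start. TTTGAA lies on the minus strand just after that start. The RefSeq start of Fbxo5 is 135 bases inside the gene as placed above, so all these matches lie within that gene. The RefSeq start of E2f2 is 120 bases before the gene start given above, so its match lies before that gene start. Windows with an E2F match made up 10 of the 58 genes called higher that had a window (17.2%) and 21 of the 592 called lower (3.55%), beside 5.31% of all tested genes. When the cells low in stem cell markers were left out, the shares were 18.9% and 4.79%. With all cells, CCAAT was in 50% of the genes called higher that had a window, beside 43.6% of all tested genes. TTTGAA was in 27.6%, beside 14.2%.

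The other named genes called higher were of several kinds. Tk1 (thymidine kinase, chromosome 11, 117815526 to 117826092, minus strand) had 10.9, 53.5 and 123.3 ppm (lowest, median and highest) in G1/S-high cells and 0, 29.2 and 91.8 ppm in G1/S-low cells. Rrm2 (the small subunit of ribonucleotide reductase, chromosome 12, 24708241 to 24714146, plus strand) had 182.4, 551 and 1004 ppm (lowest, median and highest) in G1/S-high cells and 2.44, 347.01 and 739 ppm in G1/S-low cells. Both make deoxynucleotide precursors, and the lowest values of both were in G1/S-low cells. Their log2 ratios were 0.73 ± 0.24 and 0.73 ± 0.20. Histone genes Hist1h1b, Hist1h1a, Hist1h2bn and Hist2h2bb belong to the same 15 and are described with their class. Phf19, a Polycomb-like partner of the complex PRC2, averaged 62.6 ± 16 ppm in G1/S-high and 34.7 ± 18.3 ppm in G1/S-low cells. Its log2 ratio was 0.83 ± 0.72, with 3 lanes between 1.32 and 1.78 and the others at 0.35 and 0.22. Ina, the neuronal intermediate filament protein alpha-internexin, averaged 59.7 ± 9.29 ppm in G1/S-high and 31.4 ± 4.91 ppm in G1/S-low cells, a log2 ratio of 0.91 ± 0.32.

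The last 4 of the 15 were not called once the cells low in stem cell markers were left out. Rasgrp2, an exchange factor for small GTPases of the RAP family, had a log2 ratio of 0.80 with all cells and 0.49 without them. Wdr76 had 0.76 and 0.55, Spry4, a feedback inhibitor of FGF signalling to ERK, 0.76 and 0.46, and Zfp296, a zinc finger protein of pluripotent cells, 0.74 and 0.49. For these 4 the sign was unchanged and the size fell below 1.5-fold. The remaining 11 were called both ways.

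**Figure D2:**
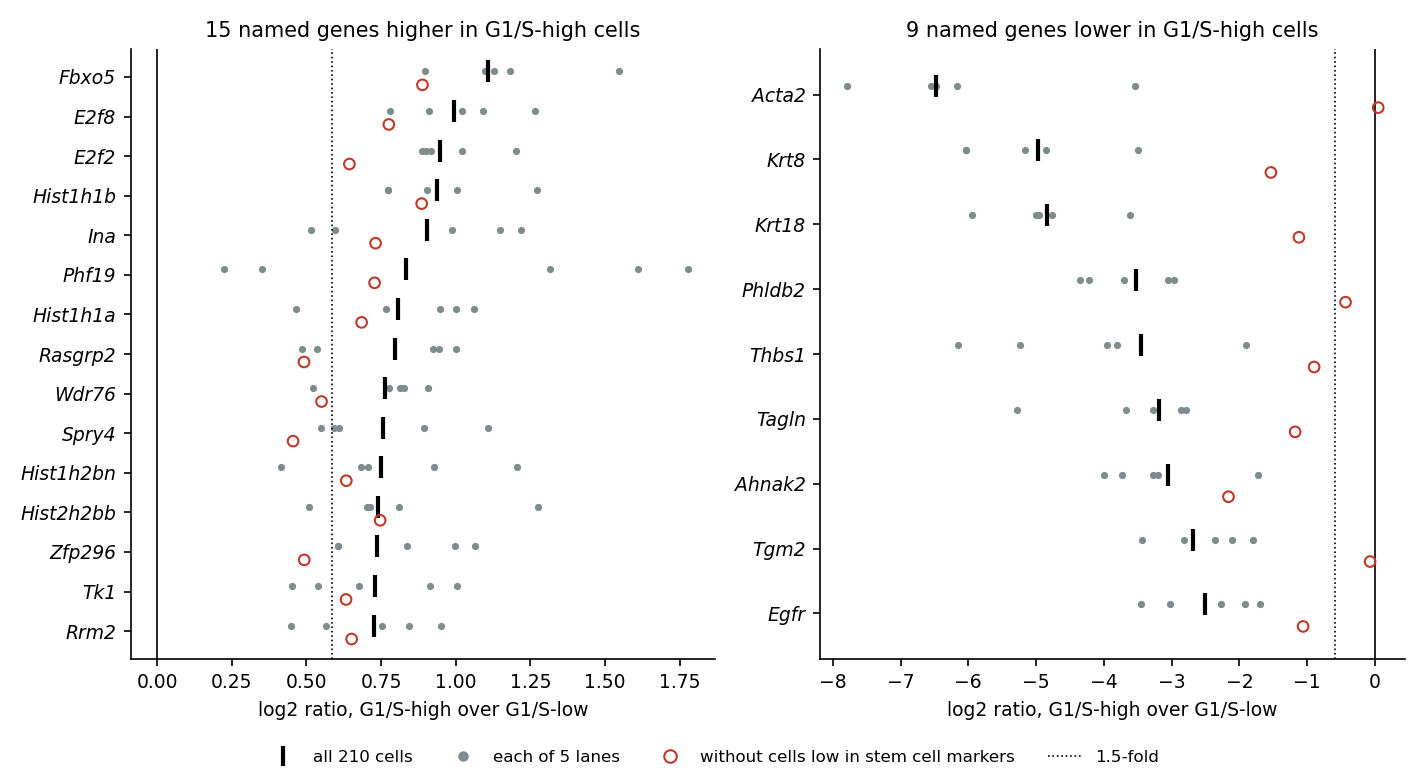
Log2 ratio of mean ppm, G1/S-high over G1/S-low, for the 15 named genes called higher (left) and 9 of the 10 called lower (right): the bar is all 210 cells, grey points are the 5 lanes, open circles leave out cells low in stem cell markers, dotted lines mark 1.5-fold. All 15 on the left stay above 0, with 11 still called, while on the right only Ahnak2 and Egfr are still called and Acta2 is at 0.05.

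Most genes of DNA replication had ratios a little above 0. Of 77 genes in 4 lists (origins, forks, chromatin behind the fork, nucleotide supply), all 77 passed the filter and 8 were called higher, beside 0.797% of all genes. A log2 ratio above 0 was found for 76, beside 4913 of all 10671 genes tested. It was also found for 74 of 78 ribosomal protein genes, 19 of 20 genes of MYC and ribosome biogenesis and 25 of 36 mitotic genes. The median log2 ratio of the 77 was 0.37 (0.30 to 0.43 over lanes), against -0.03 for all genes, and 64 of 77 were higher in each lane, beside 15.8% of all genes tested. Without the cells low in stem cell markers the median was 0.26, 4 were called, beside 0.553% of all genes, and 47 were higher in each lane, beside 10.3%. Over 4 equal groups of cells, from the lowest to the highest scores, 48 of the 77 had a higher mean at each of the 3 steps, as had 10.1% of all genes tested, and 0 had a lower mean at each step. The E2F letters were found in 18 of 64 replication genes with a window (28.1%), beside 5.31% of all tested genes. The lists were chosen with earlier results of these cells known, so these counts are a description.

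Among 23 genes of origin licensing and firing the median log2 ratio was 0.30 (0.18 without the cells low in stem cell markers) and none passed 1.5-fold. Mcm4, a subunit of the same helicase as Mcm5 and Mcm6 (chromosome 16, 15623897 to 15637400, minus strand), had 223.4, 374.8 and 587 ppm (lowest, median and highest) in G1/S-high cells and 13.5, 256.3 and 416.4 ppm in G1/S-low cells. It stood just under the 1.5-fold limit at 0.57 ± 0.08, with 96.2% of G1/S-high cells above the G1/S-low median. Mcm10 averaged 170.3 ± 8.7 ppm in G1/S-high and 115.3 ± 13.6 ppm in G1/S-low cells, a log2 ratio of 0.56. At the other end, Topbp1, a factor that helps fire origins, was at 0.14, and Orc4, a subunit of the origin recognition complex, at 0.03. Gmnn (geminin, which blocks relicensing) was at 0.36 and its target Cdt1 at 0.28.

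Of 29 fork genes, Dna2, Clspn and Pcna were called higher and 27 were higher in each lane, beside 0.797% and 15.8% of all genes (median 0.37). With the cells low in stem cell markers left out, 1 was called and 17 were higher in each lane, beside 0.553% and 10.3% of all genes (median 0.21). Pcna, the sliding clamp of DNA polymerases (chromosome 2, 132249162 to 132253314, minus strand), had 198.6, 284.5 and 471 ppm (lowest, median and highest) in G1/S-high cells and 10.3, 207.1 and 362.1 ppm in G1/S-low cells. Clspn (claspin, a checkpoint adaptor at the fork) averaged 65.6 ± 4.66 ppm in G1/S-high and 42.9 ± 3.45 ppm in G1/S-low cells, a log2 ratio of 0.60 ± 0.17. Dna2, a nuclease and helicase that trims flaps, averaged 83.8 ± 3.87 ppm in G1/S-high and 50.8 ± 7.05 ppm in G1/S-low cells, a log2 ratio of 0.71 ± 0.25. Of these 3, Clspn was still called without the cells low in stem cell markers (0.63), while Dna2 and Pcna were at 0.49 and 0.47. Timeless was at 0.18 and Rnaseh2b, a subunit of ribonuclease H2, at 0.07, the 2 lowest of the list.

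Chromatin factors that act behind the fork had a median of 0.49 over 10 genes (0.32 without the cells low in stem cell markers). Chaf1b, a subunit of the histone chaperone CAF-1, averaged 89.4 ± 2.45 ppm in G1/S-high and 55.8 ± 5.9 ppm in G1/S-low cells, a log2 ratio of 0.67 ± 0.18. Uhrf1, which brings DNA methylation to new strands, averaged 772 ± 25 ppm in G1/S-high and 502 ± 29 ppm in G1/S-low cells, a log2 ratio of 0.62 ± 0.11. Both were called higher with all cells, beside 0.797% of all genes. At 0.54 and 0.44 they were not called once the cells low in stem cell markers were left out. Dnmt1, the methyltransferase that Uhrf1 recruits, was at 0.08, and Cbx5 (HP1 alpha) at 0.21, neither past the limit.

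In nucleotide supply, 3 of 15 genes were called higher, with the cells low in stem cell markers and without them, beside 0.797% and 0.553% of all genes, Tk1 and Rrm2 among the 3 both times (median 0.38 and 0.26). Rrm1, the large subunit of ribonucleotide reductase, differed less than Rrm2, with 228.6 ± 7 ppm in G1/S-high and 184.3 ± 13.3 ppm in G1/S-low cells and a log2 ratio of 0.31. Samhd1, which breaks deoxynucleotides down, was at 0.05, and Cad, which starts pyrimidine synthesis, at -0.08.

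Of 65 replication-dependent histone genes (the Hist clusters), 19 passed the filter and the others were too low to be read. Of the 19, 9 were called higher and 0 lower, beside 0.797% of all genes called higher, and 16 were higher in each lane, beside 15.8%. Their median log2 ratio was 0.57 (0.42 to 0.81 over lanes) and 0.52 without the cells low in stem cell markers, where 7 were called, beside 0.553%. The mean was higher at each of the 3 steps over the 4 score groups for 15 of 19, beside 10.1% of all genes tested. Histone genes share near-identical coding sequence, and how the authors divided reads among copies was not stated, so single members are uncertain. Since a gene passed on its mean over all cells, the 19 do not stand for the 65, and the median was 0.34 with no filter and 0.75 with a minimum mean of 20 ppm. It was 0.37 with 5 ppm added, 0.33 between the upper and lower 50% of cells, and 0.37 with the score from 129 and the values from CAST.

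By class, 5 of 6 linker histone H1 genes passed, with a median of 0.69 and 3 called higher (3 without the cells low in stem cell markers). The shares over all genes were 0.797% and 0.553%. Hist1h1b (H1.5, chromosome 13, 21779883 to 21780625, minus strand) had 2.08, 28.6 and 115.2 ppm in the lowest, median and highest G1/S-high cell, against 0, 7.18 and 129.8 ppm in the G1/S-low cells. Its mean was 32.4 ± 5.67 ppm in G1/S-high and 16.4 ± 3.95 ppm in G1/S-low cells, a log2 ratio of 0.94 ± 0.21 (0.89 without the cells low in stem cell markers). Every G1/S-high cell had a value above 0, against 82.9% of G1/S-low cells, but the highest cell of all was G1/S-low. Hist1h1a had 2.08, 20.8 and 84.6 ppm (lowest, median and highest) in G1/S-high cells and 0, 9.28 and 73.3 ppm in G1/S-low cells, a log2 ratio of 0.81 ± 0.24. Hist1h1d was at 0.69 ± 0.16 and Hist1h1e at 0.33 ± 0.47. Hist1h1c had nearly equal means, with 12.1 ± 3.01 ppm in G1/S-high and 12.4 ± 2.23 ppm in G1/S-low cells and a log2 ratio of -0.03 ± 0.47.

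Of 16 H2B genes, 9 passed, with a median of 0.59 and 5 called higher (4 without the cells low in stem cell markers), beside 0.797% and 0.553% of all genes. Hist2h2bb averaged 42.4 ± 5.42 ppm in G1/S-high and 25 ± 7.12 ppm in G1/S-low cells, a log2 ratio of 0.74 ± 0.29. Hist1h2bn averaged 31.2 ± 2.96 ppm in G1/S-high and 18.1 ± 5.23 ppm in G1/S-low cells, a log2 ratio of 0.75 ± 0.30. Hist1h2bf was at 0.88 ± 0.18, and Hist1h2bc, at 0.18 ± 0.55, was the lowest of the class. H2A was read through 2 genes of 18, Hist1h2ak (0.59 ± 0.33) and Hist2h2aa2 (0.29 ± 0.75), H3 through Hist1h3a alone (0.40 ± 0.24) and H4 through Hist1h4c (0.54 ± 0.22) and Hist1h4d (0.31 ± 0.19). Of these 5, only Hist1h2ak was called higher with all cells, beside 0.797% of all genes. None was without the cells low in stem cell markers (0.56 for Hist1h2ak).

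**Figure D3:**
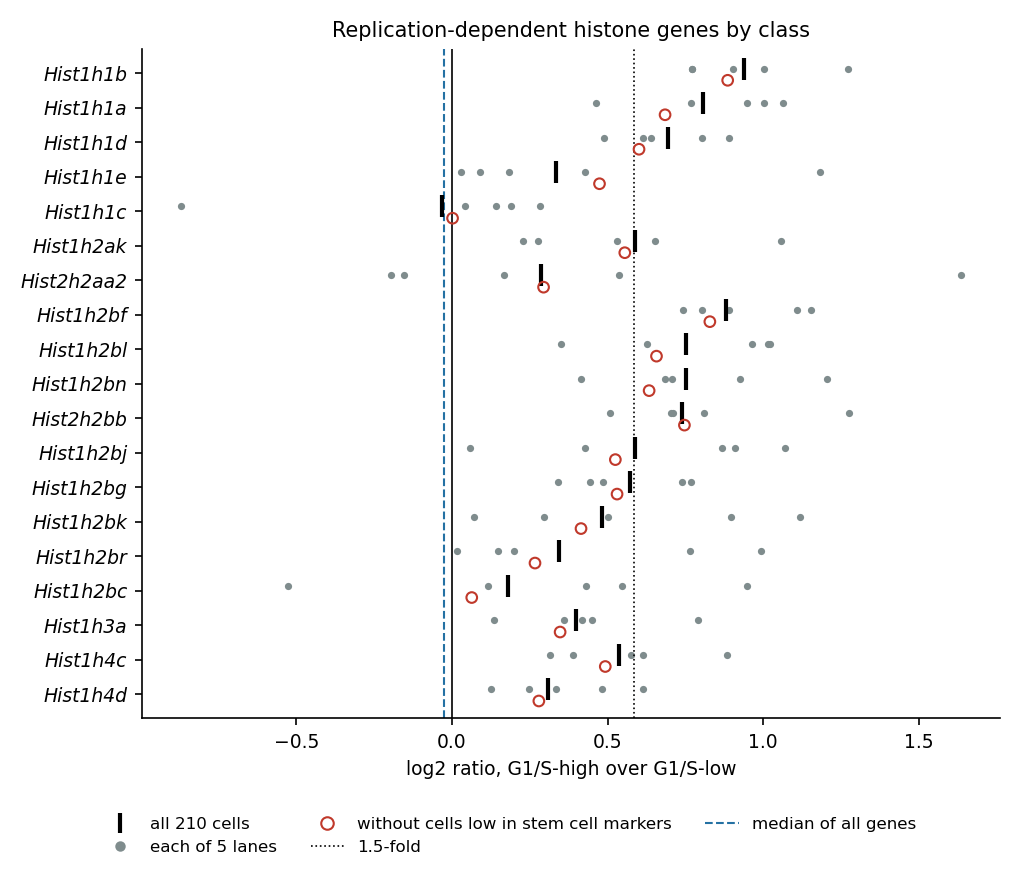
Log2 ratio of mean ppm, G1/S-high over G1/S-low, for the 19 replication-dependent histone genes that passed the filter, ordered by class from H1 to H4: bars are all 210 cells, grey points the 5 lanes, open circles leave out cells low in stem cell markers, and the dashed line is the median of all genes (-0.03). The bars of 18 genes are above 0, that of Hist1h1c is at -0.03, and open circles lie close to the bars.

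The promoter of Hist1h1b (chr13:21780576-21780875 on the minus strand) is shown as the histone gene with the highest ratio, with CCAAT and TTTGAA on either strand in capitals.
Hist1h1b: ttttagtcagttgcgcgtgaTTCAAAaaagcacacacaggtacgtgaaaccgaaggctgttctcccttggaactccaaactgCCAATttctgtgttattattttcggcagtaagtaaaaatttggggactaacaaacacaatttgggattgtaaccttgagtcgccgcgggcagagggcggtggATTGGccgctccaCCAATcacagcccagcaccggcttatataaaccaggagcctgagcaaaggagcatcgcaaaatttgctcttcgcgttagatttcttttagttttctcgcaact
It holds CCAAT at 3 places, between 168 and 49 bases before the start, and TTTGAA on the minus strand 230 bases before it. All 17 histone genes with a window held CCAAT, beside 43.6% of tested genes, and 10 of them (58.8%) held TTTGAA, beside 14.2%.

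Of 11 factors that make or process histone mRNA, none was called and the median was 0.27 (0.13 without the cells low in stem cell markers). Npat, the activator of histone clusters, averaged 101.2 ± 7.5 ppm in G1/S-high and 79.4 ± 7.89 ppm in G1/S-low cells (log2 0.35), and Casp8ap2 (FLASH), which acts with it, 92.9 ± 9.93 ppm in G1/S-high and 70.4 ± 8.43 ppm in G1/S-low cells (log2 0.39). Lsm11, of the U7 particle that cuts histone mRNA, was at -0.36, as was Mtf1, a metal-responsive factor with no settled place in this list (-0.36). Variant histones, whose mRNAs are polyadenylated and made through the cycle, had a median of -0.0034 over 11 genes with none called (-0.06 and 1 lower without the cells low in stem cell markers, beside 1.92% of all genes). H2afz was at 0.27 and H3f3a at 0.21, while Cenpa, the centromere histone, was at -0.21 and the linker variant H1f0 at -0.59.

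Of 13 E2F and RB family genes, 2 were called higher and 1 lower, beside 0.797% and 6.78% of all genes (median 0.32). Once the cells low in stem cell markers were left out, 3 were called higher and 0 lower, beside 0.553% and 1.92% (median 0.19). Besides E2f8 and E2f2, E2f7, the other atypical repressor, averaged 73.1 ± 3.24 ppm in G1/S-high and 48.8 ± 15.8 ppm in G1/S-low cells and was at 0.57 ± 0.40 with 1 lane below 0. It was called higher (0.81) without the cells low in stem cell markers, as read after its values were seen. E2f3 and E2f1 were at 0.51 and 0.40, not past 1.5-fold. Rb1, the retinoblastoma protein that holds E2F back, was called lower, with 15.6 ± 2.76 ppm in G1/S-high and 25.5 ± 5.69 ppm in G1/S-low cells and a log2 ratio of -0.68 ± 0.46. That call was lost without the cells low in stem cell markers (-0.59, lower in 4 lanes), and the medians were alike, at 12.4 ppm in G1/S-high and 12.9 ppm in G1/S-low cells. Its relatives Rbl1 and Rbl2 were at -0.32 and -0.17.

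Of 20 G1 cyclins, kinases, inhibitors and ubiquitin ligase genes, 15 passed the filter and their median was 0.18 (0.10 without the cells low in stem cell markers). Fbxo5, described above, was the only one called higher, with all cells and without those low in stem cell markers. The shares over all genes were 0.797% and 0.553%. Cdc25a, the phosphatase that activates CDK2, averaged 162.5 ± 7.08 ppm in G1/S-high and 109.6 ± 15 ppm in G1/S-low cells and was at 0.56 ± 0.24. Skp2, which targets the inhibitor p27, was at 0.45 ± 0.22. The D-type cyclin genes Ccnd1 and Ccnd3 were at 0.27 ± 0.45 and 0.33 ± 0.29, and Cdk4 at 0.18 ± 0.09. The CDK inhibitor p21, Cdkn1a, was the only one called lower, again both ways, beside 6.78% and 1.92% of all genes. With all cells, 1 of 15 is near the share over all genes. None was called lower without the cells poor in mitochondrial RNA as well. Cdkn1b (p27) averaged 9.41 ± 1.66 ppm in G1/S-high and 13.7 ± 2.26 ppm in G1/S-low cells. Ccnd2 had a log2 ratio of -2.44 ± 1.84, but with lanes on both sides of 0.

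Genes of S-phase repair and checkpoints had a median of 0.38 over 19 genes (0.23 without the cells low in stem cell markers). With all cells 15 were higher in each lane and 1 was called, beside 15.8% and 0.797% of all genes, and without those cells 9 were higher in each lane, beside 10.3%, and 0 called. The one called was Brca1, which acts in recombination repair, with 191.4 ± 8.97 ppm in G1/S-high and 124.9 ± 7.04 ppm in G1/S-low cells and a log2 ratio of 0.61 ± 0.11 (0.47 and not called without those cells). Chek1, the checkpoint kinase of S phase, was at 0.45, and Palb2, which acts with Brca1, at 0.11.

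Of 36 mitotic genes none was called, 6 were higher and 2 lower in each lane, beside 15.8% and 19.9% of all genes, and the median was 0.07 (-0.13 to 0.16 over lanes). Leaving out the cells low in stem cell markers, none was called and the median was -0.04. In each lane 2 were then higher and 4 lower, beside 10.3% and 10.6% of all genes. The summed level of the list had medians of 4221 ppm in G1/S-high and 4249.7 ppm in G1/S-low cells. Top2a and Cdc20 were highest, at 0.33 and 0.28. Ccna2 (cyclin A2, which acts in S phase and mitosis) was at 0.28, Ccnb1 and Ccnb2 (the mitotic B cyclins) at 0.11 and 0.07, and Cenpe and Cdc25b were lowest, at -0.21 and -0.36.

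**Figure D4:**
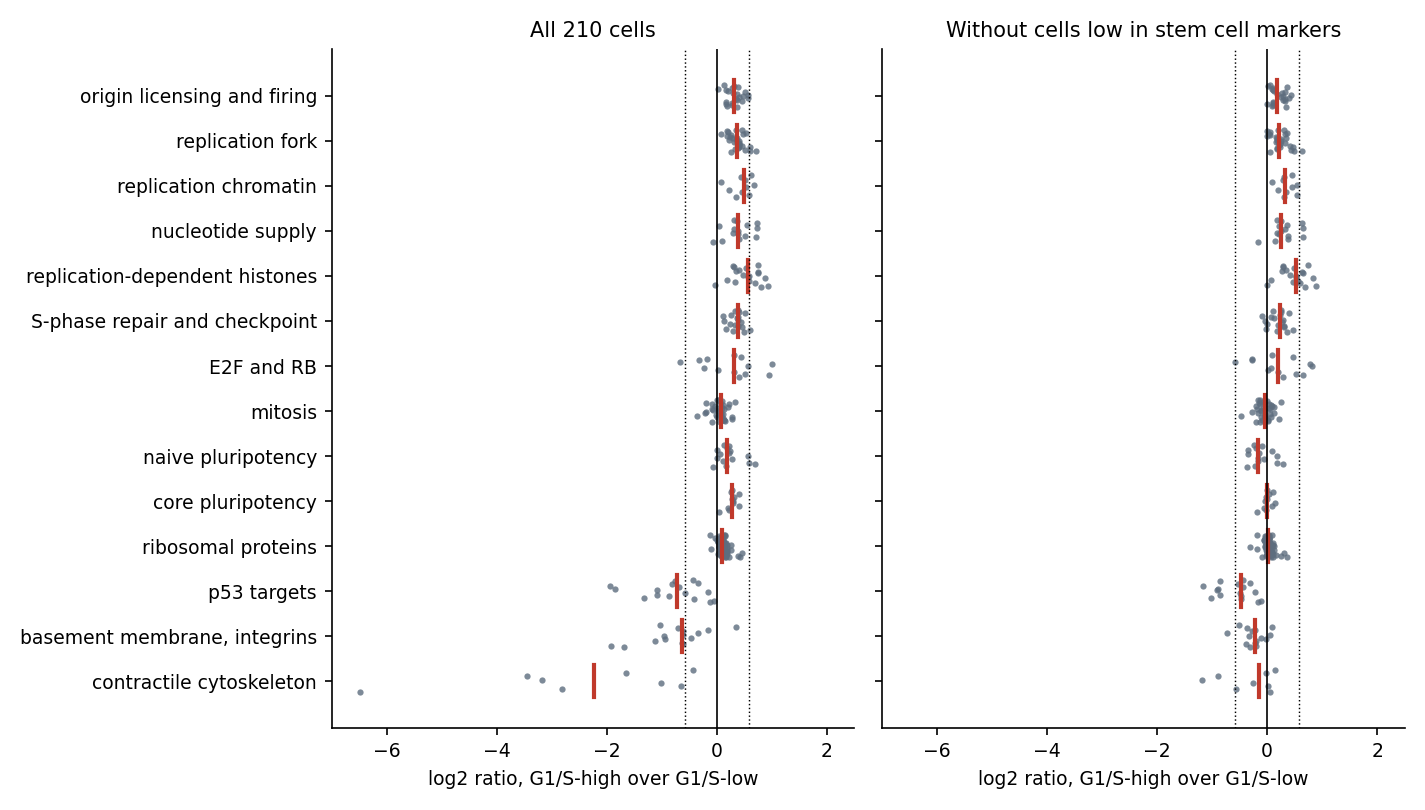
Log2 ratio, G1/S-high over G1/S-low, of every member that passed the filter (points) and the median (red bar) of 14 gene lists, with all 210 cells (left) and without the cells low in stem cell markers (right); dotted lines mark 1.5-fold in either direction. Medians of the replication and histone lists lie to the right of 0 on both sides, while the median of contractile genes is -2.23 on the left and -0.14 on the right.

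Genes whose level followed the score most closely over the 419 cells, which share library and scaling steps, were Mcm4 (Spearman rho 0.56), Fbxo5 (0.56), Pcna (0.55) and Rrm2 (0.54). All 4 were also among the 5 highest without the cells low in stem cell markers, at 0.49 to 0.52. Rrm2 had means of 348.7, 456, 512 and 578 ppm over the 4 groups from the lowest to the highest scores, Mcm4 249.4, 307.5, 350.3 and 370.3 ppm, and Pcna 196.4, 247.9, 285.5 and 296.97 ppm. Each was higher at all 3 steps, with the widest step between the lowest group and the next.

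The lowest rho belonged to Malat1, a nuclear long noncoding RNA (-0.45, chromosome 19, 5795690 to 5802672, minus strand). Malat1 had 37.7, 1274 and 3588 ppm in the lowest, median and highest G1/S-high cell, against 303.2, 2534 and 9104 ppm in the G1/S-low cells. Of G1/S-high cells, 5.71% exceeded the G1/S-low median, and the log2 ratio was -1.06 ± 0.20, called lower in all cells, without the cells low in stem cell markers (-1.09) and without the cells poor in mitochondrial RNA as well (-1.03). Its means were 2756, 1869.6, 1480.1 and 1319.8 ppm over the 4 score groups, low to high. Neat1, the RNA scaffold of paraspeckles, was named after its values were seen and averaged 301.9 ± 69.9 ppm in G1/S-high and 612 ± 94.4 ppm in G1/S-low cells, a log2 ratio of -1.02 ± 0.39 (-0.99 without the cells low in stem cell markers). The next lowest rho were those of Klhl26 (-0.33), Atf7 (-0.33), a CREB-family transcription factor, Fndc3b (-0.32) and Tcaf1 (-0.32). All 4 were called lower with all cells and without the cells low in stem cell markers, Klhl26 with log2 ratios of -1.86 ± 0.59 and -1.78.

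**Figure D5:**
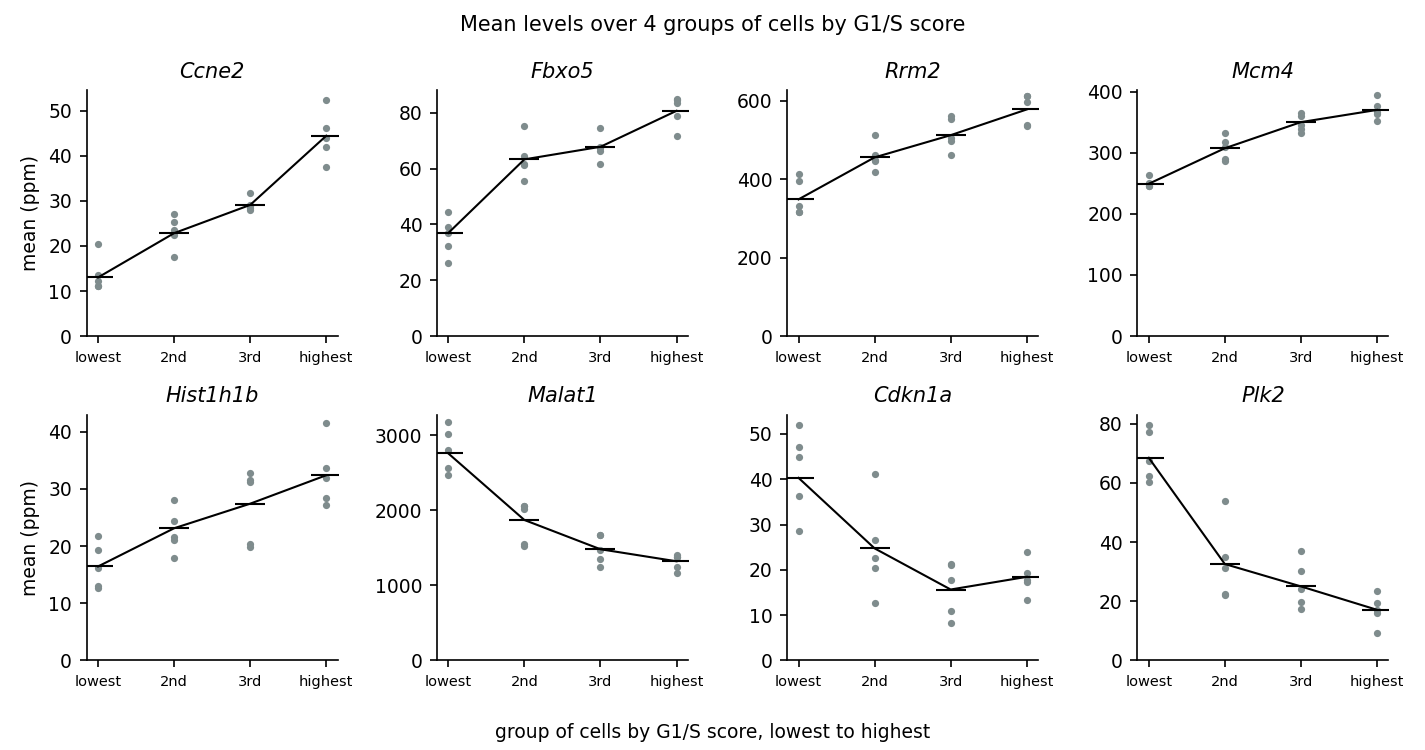
Mean ppm of 8 genes in 4 equal groups of cells ordered from the lowest to the highest G1/S score; black bars joined by a line are all cells of a group and grey points are the 5 lanes. Ccne2, a score gene, and Fbxo5, Rrm2, Mcm4 and Hist1h1b climb at each step, Malat1 and Plk2 decline at each step, and Cdkn1a is lowest in the group next to the highest.

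Targets of p53 were lower in G1/S-high cells. The p53 protein is a stress-activated transcription factor whose target Cdkn1a blocks CDK2 and so entry into S phase, and whose target Mdm2 degrades p53. Of 18 target genes, 16 passed the filter, 9 were called lower and 0 higher (6.78% of all genes were called lower), and 13 were lower in each lane, beside 19.9%. The median log2 ratio was -0.72 (-0.89 to -0.31 over lanes). Without the cells low in stem cell markers it was -0.48, 6 were called lower beside 1.92% of all genes, and 13 were lower in each lane beside 10.6%. Without the cells poor in mitochondrial RNA as well, the median was -0.38 and 3 were called, beside 1.17%. Means were lower at each step over the 4 score groups, low to high, for 10 of 16, beside 10.4% of all genes.

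Cdkn1a (p21, chromosome 17, 29090976 to 29100727, plus strand) had 0, 11.4 and 174.1 ppm in the lowest, median and highest G1/S-high cell, against 0, 20.6 and 276.5 ppm in the G1/S-low cells. The ranges overlapped, and the highest cells of both sets were far above either median. Its mean was 18.5 ± 3.84 ppm in G1/S-high and 40.3 ± 9.3 ppm in G1/S-low cells, a log2 ratio of -1.09 ± 0.24. Mdm2 (chromosome 10, 117688875 to 117710758, minus strand) had 15.6, 77.6 and 355.6 ppm (lowest, median and highest) in G1/S-high cells and 11.5, 125.3 and 1453 ppm in G1/S-low cells, a log2 ratio of -1.08 ± 0.21. Plk2, a kinase of the G1 phase, had 0, 5.49 and 152.97 ppm (lowest, median and highest) in G1/S-high cells and 0, 25.9 and 635 ppm in G1/S-low cells. It differed most of the list, at -1.94 ± 0.55, followed by Perp, a membrane protein of desmosomes and cell death, at -1.85 ± 0.54, and Btg2, an antiproliferative factor, at -1.32 ± 0.50. Trp53inp1, which feeds back on p53, was at -0.76 ± 0.29.

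The 6 genes called lower without the cells low in stem cell markers were Plk2 (-1.16), Btg2 (-1.02), Mdm2 (-0.91), Perp (-0.90), Trp53inp1 (-0.86) and Cdkn1a (-0.85). Of them, Btg2, Perp and Trp53inp1 were still called when the cells poor in mitochondrial RNA were left out too, where Cdkn1a was at -0.54, Mdm2 at -0.64 and Plk2 at -0.99. Of targets that promote cell death, Bax was at -0.06, Aen at -0.12 and Bbc3 (PUMA) at -0.42, none of them called, and Pmaip1 (NOXA) was called lower at -0.82.

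The lowest ratios among genes called lower were those of epithelial and contractile genes. Krt8, a keratin of simple epithelia (chromosome 15, 101996698 to 102004482, minus strand), had 0, 4.47 and 567 ppm in the lowest, median and highest G1/S-high cell, against 0, 10.9 and 7310.4 ppm in the G1/S-low cells. Acta2, smooth muscle actin (chromosome 19, 34241090 to 34255590, minus strand), had 0, 0 and 92.4 ppm (lowest, median and highest) in G1/S-high cells and 0, 0 and 9475 ppm in G1/S-low cells. The median cell of either set was at 0 for Acta2, while for Krt8 the G1/S-low median was above the G1/S-high median. The G1/S-low means of both genes were raised by high values in some cells. For Krt8 the means were 18.8 ± 10.4 ppm in G1/S-high and 621 ± 151.2 ppm in G1/S-low cells (SD over 5 lanes). For Acta2 they were 2.33 ± 2.38 ppm in G1/S-high and 296.9 ± 264.3 ppm in G1/S-low cells. Krt18, the partner of Krt8, had a log2 ratio of -4.84 ± 0.83, beside -4.97 ± 1.05 for Krt8 and -6.48 ± 1.56 for Acta2. Thbs1 (thrombospondin 1) was at -3.45 ± 1.61, Tagln (transgelin) at -3.18 ± 1.02, Phldb2 at -3.52 ± 0.64 and Tgm2 (a transglutaminase) at -2.68 ± 0.64.

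Without the cells low in stem cell markers, Krt8 was at -1.54, Krt18 at -1.12, Tagln at -1.18, Thbs1 at -0.90, Phldb2 at -0.43, Tgm2 at -0.07 and Acta2 at 0.05, and none of these 7 was called. Of the 10 named genes called lower, 2 were still called. Ahnak2, a large scaffold protein, was at -2.16 (-3.05 ± 0.88 with all cells), and Egfr, the receptor of epidermal growth factor, at -1.06 (-2.50 ± 0.74 with all cells). Egfr had 0, 7.49 and 43.5 ppm (lowest, median and highest) in G1/S-high cells and 0, 16.3 and 741 ppm in G1/S-low cells, and Ahnak2 0, 2.1 and 142.3 ppm (lowest, median and highest) in G1/S-high cells and 0, 10.3 and 1444 ppm in G1/S-low cells.

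Of 12 contractile genes listed, 8 passed the filter on their mean over all cells, which high values in some G1/S-low cells can raise. Acta2 averaged under the 5 ppm of that filter in G1/S-high cells. Of the 8, 7 were called lower with all cells, beside 6.78% of all genes, and 0 without the cells low in stem cell markers, beside 1.92%. The medians were -2.23 and -0.14, and with no filter on low values the median with all cells was -1.41. Basement membrane and integrin genes had 10 of 15 called lower with all cells, beside 6.78% of all genes (median -0.64), among them Col4a2 at -1.92, Col4a1 at -1.69, Sparc at -1.03 and the integrin gene Itga3 at -1.13. Without those cells 1 was called, beside 1.92%, the laminin chain Lama1 at -0.73, which had not been called with all cells (-0.34), and the median was -0.22.

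Markers of other cell types were read as whole lists. The 11 trophectoderm genes summed to 21.5 to 1389.5 ppm in G1/S-high and 18.3 to 15509 ppm in G1/S-low cells, with medians of 132.6 ppm in G1/S-high and 152.4 ppm in G1/S-low cells, and to at most 3569.7 ppm in G1/S-low cells without the cells low in stem cell markers. This list includes Krt8, its lowest ratio at -4.97, so the sums in part repeat the keratin values given above. Krt7 averaged 6.12 ppm in G1/S-high and 45.2 ppm in G1/S-low cells, Cdx2 averaged 0.448 ppm in G1/S-high and 0.722 ppm in G1/S-low cells, and Plac1 was 0 in all G1/S-high cells. The 10 fibroblast genes summed to at most 46.7 ppm in G1/S-high and 2991 ppm in G1/S-low cells, or 92.7 ppm without the cells low in stem cell markers, with medians of 6.53 ppm in G1/S-high and 13 ppm in G1/S-low cells. Col1a1 alone of the 10 passed the filter, on a mean over all cells that high values in some G1/S-low cells can raise. It was called lower at -5.34 (-0.59 without the cells low in stem cell markers), beside 6.78% of all genes. With no filter on low values the median of the list was -0.70. Lum was 0 in all cells of both sets. The 10 primitive endoderm genes had medians of 62.6 ppm in G1/S-high and 101.9 ppm in G1/S-low cells, and means of 0.293 and 1.07 ppm for Gata6 in G1/S-high and G1/S-low cells. The 9 neural genes had medians of 55.7 ppm in G1/S-high and 64.7 ppm in G1/S-low cells. Of these Nes was called lower (-1.45, and -0.31 without the cells low in stem cell markers), beside 6.78% of all genes. The 7 mesendoderm genes had medians of 4.25 ppm in G1/S-high and 4.11 ppm in G1/S-low cells, and none passed the filter. What part these cells have in the other differences was not tested other than by leaving them out.

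Of 15 genes of naive pluripotency, Fgf4 and Gbx2 were called higher with all cells, beside 0.797% of all genes, and none without the cells low in stem cell markers, and the median was 0.19 with all cells and -0.16 without. Nanog averaged 310.1 ± 42 ppm in G1/S-high and 209.4 ± 48.7 ppm in G1/S-low cells, at 0.56 and 0.18 without those cells. Of 11 core genes none was called, and the median was 0.28 and 0.00. Pou5f1 averaged 289.4 ± 22.3 ppm in G1/S-high and 236.7 ± 19.2 ppm in G1/S-low cells, at 0.29 and -0.05, and Sox2 was at 0.31 and -0.03. Both sets thus held these markers on average, although 5 G1/S-high and 30 G1/S-low cells were low in stem cell markers. Those cells were chosen by low levels of genes that include Nanog, Pou5f1 and Sox2. For these genes the fall in ratio when those cells are left out was set by that choice and is not a finding.

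Genes of MYC and ribosome biogenesis had a median of 0.28 over 20 (0.13 without the cells low in stem cell markers) with none called, from Mycn at 0.44 to Mycl at -0.43. Glycolysis genes had 0.14 over 15 (0.06), with Slc2a1, a glucose transporter, called lower at -0.67 with all cells and at -0.03 without. It was the only one called of the 15, beside 6.78% of all genes called lower. Feedback and early genes of ERK signalling had 0.13 over 15 (0.02). With all cells 1 was called higher, Spry4 at 0.76, and 2 lower, beside 0.797% and 6.78% of all genes. The 2 were Fos and Jun, at -1.32 and -0.97, and at -0.22 and 0.01 without the cells low in stem cell markers. None of the 15 was called without those cells. Formative genes had 0.28 over 10 (0.17) with none called, from Zic2 at 0.71 to Sall2 at -0.46. Of 78 ribosomal protein genes none was called and the median was 0.09 (0.02), and of 12 genes encoded in mitochondria none was called, at 0.09 (0.08).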

How the data were processed

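Each of 419 single cells has 1 column in each of 2 deposited tables, 1 per allele, with 117762 transcripts as rows. The values are a score and not raw counts: whole numbers that the authors scaled to nearly common totals per cell, judged from the deposited values, so depth in reads is unknown and limits single low genes. The submitters' processing notes name Bowtie 1.1.2 and mm10; how reads were counted, whether by strand, and how values were scaled are not stated there. Rows of chromosomes X, Y and M hold values in the CAST table only.

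Rows were summed per gene (GENCODE vM21) over both tables and divided by the cell's total (ppm). Ratios are log2((G1/S-high mean + 1)/(G1/S-low mean + 1)) of means in ppm, a scale that understates low genes. Called genes are at least 1.5-fold apart and on the same side in all 5 lanes; genes needed a mean of 5 ppm and values above 0 in 20% of cells. The calculation was checked on simulated data. Members, lists and limits were chosen with earlier results of these data known. Named genes are the 15 highest and 10 lowest called ratios among protein-coding genes that average 20 ppm or more and have no predicted symbol, from each list at most 4 members (2 from either end), the 3 highest and 3 lowest histone genes at that mean, and the 5 genes with the highest rho; others named beside them, the genes with the lowest rho included, were picked after their values were seen. Doublets were not called. A few genes that the rule names are not reported here. Python 3.11.15, numpy 2.4.6, pandas 2.3.3, scipy 1.17.1 and matplotlib 3.10.9 were used.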

Additional observations from a re-analysis of the deposited data

How the results depend on the processing

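In all, 31 alternatives were tried, 28 fixed with the design and 3 added after seeing the data. The share of genes called higher, 0.797%, became 0.487% with 5 ppm added in place of 1, 0.378% with no filter on low values, 1.27% with a score from ranks, 0.394% between the upper and lower 33.3% of cells, 0.075% between the upper and lower 50% and 0.0562% at 2-fold. The share called lower, 6.78%, became 4.14% with no filter, 4.19% with a minimum mean of 20 ppm, 3.52% between the upper and lower 50% and 2.83% at 2-fold. Leaving out cells low in stem cell markers gave 1.92% lower. With high and low cells retaken after that, 0.422% were higher and 1.52% lower, and without cells poor in mitochondrial RNA as well 1.17% were lower. The histone median of 0.57 became 0.37 with 5 ppm added, 0.34 with no filter, 0.75 with a minimum mean of 20 ppm, 0.33 between the upper and lower 50% and 0.37 with the score from 129 and the values from CAST. It was above 0 in every alternative run. Leaving out 1 lane at a time gave 0.956% to 1.05% higher, 6.47% to 8.11% lower and a histone median of 0.50 to 0.63, with 4 lanes in place of 5 required to share a direction. Acta2 changed sign without the cells low in stem cell markers (0.0474) and with high and low cells retaken (0.203). The other 24 named genes called higher or lower kept their sign in every alternative that gave a value. Of 689 list medians recomputed, 94 moved by more than 1 SD over lanes. Most list medians moved once the cells low in stem cell markers were left out, 15 against 8 that did not. With high and low cells retaken after that, 17 moved and 6 did not. Without the cells poor in mitochondrial RNA as well, 16 moved and 7 did not. Except where a value above shows it, the cause of a shift was not tested. No paired analysis was possible because the labels give 1 group. Depth in reads is unknown, and genes under 5 ppm were not read. A lane holds as few as 12 G1/S-low cells, and 8 without the cells low in stem cell markers.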

Other observations

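Genes of the 2-cell embryo, the Zscan4 cluster, Usp17l genes, Tcstv1, Tcstv3, Zfp352, Gm4340 and Tdpoz4, are switched on in rare embryonic stem cells. None of the 13 passed the filter, and the median cell had 0 ppm summed over them among both G1/S-high and G1/S-low cells. In 5 of 419 cells the sum was over 100 ppm, a limit chosen after the values were seen, with 49 the highest value below it. Of these 5, 0 were G1/S-high and 4 were G1/S-low. The G1/S-low cells had sums of 17264, 1916, 1123 and 102.6 ppm with G1/S scores of 0.216, 0.776, 0.553 and 0.545. The fifth cell had 3578 ppm and a score of 1.13, just under the G1/S-high cells. The cell with the highest sum was low in stem cell markers (0.217) and had 21872 transcripts above 0, while the stem cell marker scores of the other 4 were 0.704 to 1.43. With 5 cells, no comparison was made.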
